A study of Mus musculus with 10 samples.

Results

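Serpin genes encode a family of protease inhibitors and related proteins, and 40 of them were followed in mouse embryonic stem (ES) cells and in their differentiated progeny, without and with EBIO. They are the genes whose symbol begins with Serpin in the platform annotation, counting only probe sets that carry 1 symbol, out of 18193 genes named on the arrays. Where a gene had several probe sets, 1 was chosen by its level, namely the greatest average across the 10 arrays. The height of these levels is therefore a consequence of the choice, and only differences between groups were tested. The family was picked with its fall in differentiated cells already known. By clade, the lettered branches of the family, 14 belonged to clade A, 18 to clade B, 2 each to clades F and I, and 1 each to clades C, D, G and H.

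All samples came from the mouse ES cell line CGR8 of strain SV129. The groups were untreated ES cells (n = 3, from passages 25, 26 and 27), ES cells of the same passages given 1 mM EBIO for 3 days (n = 3), differentiated cells kept without EBIO (n = 2) and differentiated cells kept with EBIO (n = 2). EBIO acts as an opener of potassium channels that respond to calcium, and the series concerns how such channels bear on the formation of heart and pacemaker-like cells. Differentiation meant 5 days as embryoid bodies followed by 10 days of culture, in which EBIO was present or absent; the labels give no dose for that stage. Every group thus rests on a single cell line, and the differentiated cultures were not sorted. Values are log2 expression as made by the authors with RMA. The ES arrays and the differentiated arrays had been normalized as separate sets, so the comparisons stay within a stage. A gene was tested where it exceeded the median of its array, a level near 4.5 to 4.6 in ES cells and 5.6 to 5.7 in differentiated cells, on no fewer arrays than the smaller group held.

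The markers bore out the labels of untreated ES cells and of the differentiated cells, while ES cells given EBIO had lower ES cell markers. Untreated ES cells averaged 11.24 to 11.47 over 8 ES cell markers, with all 8 above the array medians. Heart muscle markers (9 genes) averaged 8.68 to 8.82 in untreated and 12.85 to 12.89 in EBIO-treated differentiated cells. All 9 rose with EBIO, beside 33.3% of all genes tested. In ES cells 8 of 8 ES cell markers fell with EBIO, beside 21.2% of all genes tested. They averaged 7.74 to 8.19 in EBIO-treated ES cells, and among them Pou5f1 went from a mean of 11.88 to 7.68. Another of them, Tdgf1, had no EBIO array above its median and entered the test through its control arrays alone.

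Most serpins act as suicide substrates: a target protease cuts an exposed loop of the serpin and is trapped and distorted by it. Clade A proteins are secreted, many of them by the liver; clade B proteins mostly stay inside the cell and guard it against its own or released leukocyte proteases. Clades C, D, F and G hold plasma inhibitors of clotting, plasmin and complement, clade H the collagen chaperone of the endoplasmic reticulum, and clade I inhibitors found mainly in neurons and pancreas. Some members, such as the collagen chaperone Serpinh1 and the pigment epithelium-derived factor Serpinf1, do not inhibit proteases.

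The upstream DNA of 5 members is shown as examples. Serpinh1 had the largest rise in ES cells, Serpini1 rose in differentiated cells, and Serpinb6a, Serpinb9 and Serpinf1 fell there. Serping1, which had the largest fall there, is absent from the promoter table, and other members with large falls are not shown. Each line gives the 250 bases before the start of transcription, 5′ to 3′, from RefSeq on build GRCm38.p6. Capitals mark matches, on either strand, to the letters of the CCAAT box, a heat shock element core (GAANNTTC), an AP-1 site (NTGANTCAN, with a flanking base on each side), a STAT site (TTCNNNGAA), an interferon element core (GAAANNGAA), which can overlap the STAT site, or TATAAA, the TATA box. Serpinb6a has 2 starts in the table, and the window with matches to the STAT and interferon words is shown; the other held a CCAAT box only.
Serpinh1 (chr7:99353240-99353489, minus strand): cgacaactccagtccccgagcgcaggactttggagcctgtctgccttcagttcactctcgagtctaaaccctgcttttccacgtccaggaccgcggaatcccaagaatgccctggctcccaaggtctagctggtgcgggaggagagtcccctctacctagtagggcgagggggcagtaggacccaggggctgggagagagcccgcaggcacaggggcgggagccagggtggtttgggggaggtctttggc
Serpini1 (chr3:75557243-75557492, plus strand): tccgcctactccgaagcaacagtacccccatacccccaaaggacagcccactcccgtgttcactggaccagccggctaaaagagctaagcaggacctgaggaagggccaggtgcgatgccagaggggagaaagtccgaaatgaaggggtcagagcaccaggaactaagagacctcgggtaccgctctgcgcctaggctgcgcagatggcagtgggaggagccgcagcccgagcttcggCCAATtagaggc
Serpinb6a (chr13:34002795-34003044, minus strand): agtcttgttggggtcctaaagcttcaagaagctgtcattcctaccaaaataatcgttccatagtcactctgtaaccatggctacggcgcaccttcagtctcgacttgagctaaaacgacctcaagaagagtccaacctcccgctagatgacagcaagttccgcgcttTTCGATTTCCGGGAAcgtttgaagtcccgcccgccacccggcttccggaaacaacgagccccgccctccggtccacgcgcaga
Serpinb9 (chr13:33004291-33004540, plus strand): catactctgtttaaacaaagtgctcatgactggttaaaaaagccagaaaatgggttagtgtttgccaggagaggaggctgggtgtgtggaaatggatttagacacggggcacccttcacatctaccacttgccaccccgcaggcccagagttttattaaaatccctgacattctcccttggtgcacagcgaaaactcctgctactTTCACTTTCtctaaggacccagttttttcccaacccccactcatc
Serpinf1 (chr11:75422624-75422873, minus strand): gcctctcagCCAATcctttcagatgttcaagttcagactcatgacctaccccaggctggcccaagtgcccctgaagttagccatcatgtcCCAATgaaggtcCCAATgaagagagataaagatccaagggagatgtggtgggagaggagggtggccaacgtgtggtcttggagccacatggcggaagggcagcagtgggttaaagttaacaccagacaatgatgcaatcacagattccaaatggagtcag
Serpinh1 had none of these words in its window. Serpini1 had a CCAAT box that began 12 bases before the start, and Serpinf1 had 3 CCAAT boxes. Serpinb9 held an interferon element core, and in Serpinb6a such a core overlapped a STAT site; this word occurred in 4 of the 34 members found in the promoter table and in 7.13% of the table's 32851 windows. AP-1 sites lay in 8 of the 34 members and in 6.72% of all windows. STAT sites lay in 6 of 34 (7.02% of all windows), CCAAT boxes in 13 of 34 (33.8%), TATA boxes in 7 of 34 (12.4%) and heat shock cores in 2 of 34 (6.69%). A member was counted if any of its windows matched, while the percentages count single windows, so the shares differ in unit. These are letter matches and not measured binding.

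The comparison closest to the subject of the series asked what EBIO did to differentiating cells. Of 15 members tested 13 fell, against 32.6% of all 12330 genes tested, and 1 rose, against 33.3% (adjusted p under 0.05, limma). Serping1, the inhibitor of complement C1 proteases and of plasma kallikrein, fell 70.8-fold. The only rise was that of Serpini1, neuroserpin, an inhibitor of tissue plasminogen activator in neurons. The median difference of the tested members was -1.89 on the log2 scale, beside 0.02 for all genes tested.

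Part of that count follows from the filter: 4 of the 15 had no EBIO array above the array median and 1 had no control array above it, so they entered because of the group in which they were high. Among the 8 members above the median on every array, 7 fell and 0 rose, beside 28.9% and 34.9% of the 10918 genes with that property (limma). At an unadjusted p under 0.05 the count that rose was also 0. With no filter, 18 of all 40 members fell and 1 rose, beside 23.5% and 22.6% of all 18193 genes. In a mixed culture, fewer cells of a type and less RNA per cell cannot be told apart.

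**Figure D1:**
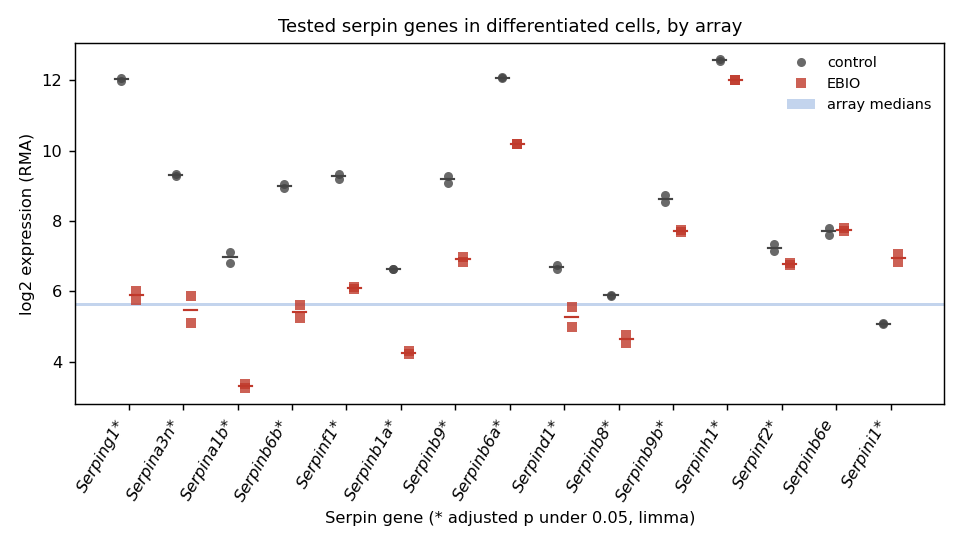
Log2 expression (RMA) of the 15 tested serpin genes on the 4 differentiated arrays, control as grey circles and EBIO as red squares (n = 2 each), with short lines at the group means and a blue band at the array medians. The 13 genes that fell have both EBIO points below both control points, from Serping1 with a difference of -6.15 to Serpinf2 with -0.46, and Serpini1 at the right is the only one above.

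Among the plasma inhibitors, Serping1 measured 11.99 and 12.08 on the control arrays and 6.02 and 5.76 on the EBIO arrays. The EBIO arrays were thus close to their array medians, from near the top of the scale in the controls. The difference was -6.15 ± 0.11 (SE, adjusted p = 1.6e-06, limma). In untreated ES cells Serping1 stood above 71.2% to 76.1% of the probe sets of its array, in untreated differentiated cells above 98.1% to 98.3%, and in EBIO-treated differentiated cells above 52.1% to 55.3%. These ranks are given as description, because the stages were normalized apart.

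Serpinf1, an antiangiogenic and neurotrophic secreted protein, measured 9.20 and 9.34 in controls and 6.07 and 6.13 with EBIO. It fell by 3.17 ± 0.08 (SE, adjusted p = 3.0e-06, limma), or 9.02-fold, with no overlap. Its other probe set went from 10.40 ± 0.16 to 3.99 ± 0.19 (SD, n = 2 each), a difference of -6.42, so the probe sets shared the direction but not the size. Serpinf2, the main inhibitor of plasmin, lies beside Serpinf1 in the genome and fell only by 0.46 ± 0.09 (SE), from 7.15 and 7.34 to 6.81 and 6.75 (adjusted p = 0.0052, limma). Serpind1, heparin cofactor II, an inhibitor of thrombin, measured 6.75 and 6.64 in controls and 5.55 and 5.00 with EBIO. It ended under the array medians, so its fall was at least 2.13-fold, taken against those medians (adjusted p = 0.00097, limma).

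Both clade A members tested fell, Serpina3n to about the array medians and Serpina1b far under them. Serpina3n, a secreted acute-phase protein of the antichymotrypsin branch, measured 9.34 and 9.29 in controls and 5.10 and 5.87 with EBIO, a fall of at least 11.9-fold against the array medians (adjusted p = 6.1e-05, limma). The EBIO arrays differed from each other more for this gene than for any other serpin tested at this stage (SD 0.55). Serpina1b, a mouse copy of alpha-1-antitrypsin, measured 6.82 and 7.13 in controls and 3.25 and 3.36 with EBIO, at least 2.58-fold lower (adjusted p = 6.7e-06, limma). Its probe set carries the suffix x_at, by which the manufacturer marks probes shared with other transcripts, so signal of the neighbouring antitrypsin copies cannot be separated. The other 12 clade A genes were too dim to test; without the filter Serpina1c (-1.47) and Serpina10 (-0.49) were called lower as well.

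Clade B, the intracellular branch, had 6 of 7 tested members lower, beside 32.6% of all genes tested. Serpinb1a and Serpinb8 entered the test through their control arrays alone. Without the filter 9 of all 18 clade B members were called lower, beside 23.5% of all genes. Serpinb1b (-1.16), Serpinb5 (-0.69) and Serpinb11 (-0.43) were the added ones. Serpinb6a, a widely expressed intracellular inhibitor of serine proteases, fell by 1.89 ± 0.07 (SE), from 12.06 and 12.09 to 10.18 and 10.20 (adjusted p = 8.9e-06, limma). Its copy Serpinb6b went from 8.95 and 9.07 to 5.24 and 5.61, at least 10.5-fold lower (adjusted p = 9.4e-06, limma). In contrast Serpinb6e, another copy, measured 7.81 and 7.61 in controls and 7.71 and 7.81 with EBIO, with overlapping groups (difference 0.05 ± 0.09 SE, adjusted p = 0.66, limma). Its probe set too is of the shared x_at kind.

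Serpinb9, the intracellular inhibitor of granzyme B, measured 9.09 and 9.29 in controls and 6.85 and 6.97 with EBIO. It fell 4.85-fold (adjusted p = 1.5e-05, limma), and its other probe set gave a difference of -2.53 beside -2.28. Serpinb9b, a rodent copy of it, fell less, from 8.53 and 8.73 to 7.75 and 7.68 (1.89-fold, adjusted p = 0.00037, limma). Serpinb1a, an inhibitor of neutrophil elastase and cathepsin G, measured 6.63 on both control arrays and 4.30 and 4.21 with EBIO, at least 2.03-fold lower against the medians (adjusted p = 5.1e-06, limma). Serpinb8, an intracellular inhibitor that acts on furin, measured 5.90 and 5.88 in controls, little above the array medians, and 4.75 and 4.54 with EBIO, at least 1.22-fold lower against the medians (adjusted p = 0.00011, limma). Over the family, 14 of the 15 tested members had groups that did not overlap, beside 84.4% of all genes tested.

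By gene order in RefSeq, 11 members lie in the run of neighbouring genes that holds the Serpinb1, Serpinb6 and Serpinb9 copies. Of these 6 were tested and 5 fell, beside 32.6% of all genes tested. The other clade B run, which includes Serpinb2, Serpinb5 and Serpinb8, held 7 members, of which only Serpinb8 was tested. The clade A run held 13 members with 2 tested, and both of these fell. Serpinb1a, Serpinb8 and Serpina1b entered the test through their control arrays alone. Shared regulation within a run was not tested.

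Serpinh1 (also called Hsp47), the chaperone that binds procollagen in the endoplasmic reticulum, fell little. It measured 12.61 and 12.55 in controls and 12.01 and 12.02 with EBIO, a difference of -0.56 ± 0.07 (SE, adjusted p = 0.00081, limma), or 1.48-fold. Fitted together with the ES arrays, which vary more for this gene, the adjusted p was 0.22 and the call was lost. Serpini1 went the other way, from 5.07 and 5.09 to 6.83 and 7.07, with control arrays under their medians, so it rose at least 2.42-fold (adjusted p = 3.0e-05, limma). A further probe set of Serpini1 gave a larger difference, 3.53, and its remaining one was dim throughout (-0.12, not tested). With the mean of the 3 probe sets the gene was too dim to test.

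**Figure D2:**
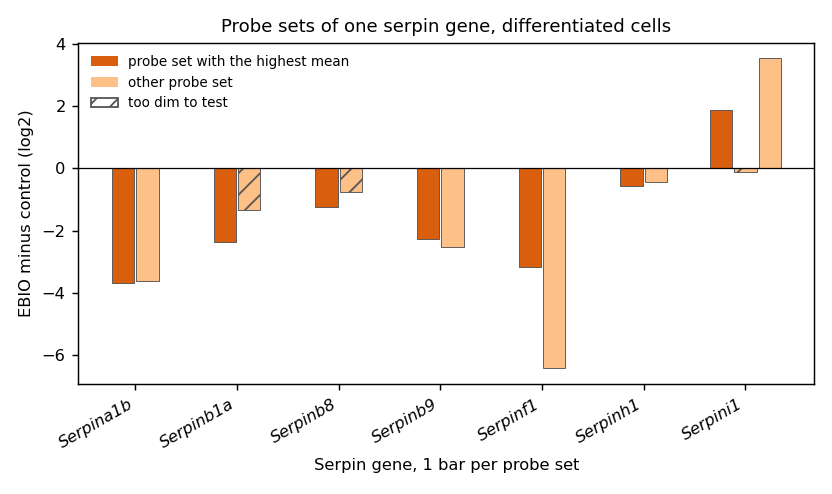
EBIO minus control (log2) in differentiated cells for each probe set of the 7 tested serpin genes with more than 1 probe set; dark bars are the probe sets that stood for the gene, light bars the others, hatching marks probe sets too dim to test. Apart from the dimmest set of Serpini1, probe sets of a gene share a direction; Serpinf1 differs in size (-3.17 and -6.42), as does Serpini1 (1.87 and 3.53, with a dim one at -0.12).

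Genes of protease, inhibitor, complement and collagen systems were counted from lists by function. At this stage 32.6% of all genes tested fell and 33.3% rose. Where a group lay under its array medians the change is a bound against them. Complement and contact genes had 8 lower and 1 higher of 9 tested. C1qb (at least 86.2-fold lower) and C1qa (at least 38.6-fold lower) encode chains of the C1q recognition protein, while Cfp, properdin, rose (difference 0.82). The genes of plasminogen activation and coagulation had 13 lower and 0 higher of 15 (1 higher at an unadjusted p under 0.05, limma); among them were the protein C receptor gene Procr (difference -3.85) and the vitronectin gene Vtn (at least 4.99-fold lower). Leukocyte proteases and cathepsins had 8 lower and 0 higher of 10 (also 0 higher at an unadjusted p under 0.05, limma), among them Ctss (at least 22.6-fold lower) and Ctsc (at least 20.3-fold lower). Membrane and secreted members of the serine protease families, with Kunitz inhibitors, had 8 lower and 2 higher of 13. Prss35 fell at least 12.9-fold and St14, which encodes matriptase, at least 4.14-fold, while Furin (difference 1.25) and Htra3 (at least 1.05-fold higher) rose. Part of these counts follows from the filter. C1qa, C1qb, Vtn, Ctss, Ctsc, Prss35 and St14 had no EBIO array above its median and entered the test through their control arrays alone. Htra3 entered through its EBIO arrays alone.

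Collagen folding and secretion genes, the setting in which Serpinh1 works, had 18 lower and 5 higher of 26 (median -0.73). Of all genes tested, 32.6% fell and 33.3% rose. Col1a2 (-7.61) and Col1a1 (-5.82), the chains of type I collagen, fell, while Col4a2 (1.00) rose. The list also counted Tango2, which rose (0.84) but is not an established collagen export gene. A list of TGF-beta pathway components with TGF-beta and YAP target genes had 9 lower and 6 higher of 15. Ltbp2 (at least 19.4-fold lower) and Tgfbi (difference -4.12) stood against Ankrd1 (4.03) and Ccn1 (0.97). Ltbp2 had no EBIO array above its median and entered the test through its control arrays alone.

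Markers of macrophages, fibroblasts, liver and visceral endoderm, and endothelium fell, as most tested serpins did. Heart muscle markers rose, and neural and trophoblast markers moved in both directions. All 10 macrophage markers tested fell, and their mean level went from 10.86 to 11.15 in controls to 4.67 to 4.72 with EBIO, where 9 of 10 lay under the medians on every array. All 9 fibroblast markers fell (11.69 to 11.72 against 7.30 to 7.33), with Lum and Thy1 under the medians on every EBIO array. All 10 tested liver and visceral endoderm markers fell; the list of 13 averaged 7.38 to 7.63 in controls and 5.14 to 5.17 with EBIO, with 8 of 13, Afp and Alb among them, under the medians on every EBIO array. All 8 endothelial markers tested fell as well (the 9 of the list averaged 7.54 to 7.55 against 5.27 to 5.32). Neural markers had 4 higher and 2 lower of 7 and trophoblast markers 1 higher and 2 lower of 5. At this stage 32.6% of all genes tested fell and 33.3% rose. Tested markers under the medians on every EBIO array entered through their control arrays, so part of these counts follows from the filter. The part of these cell types in the serpin results was not tested.

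The genes most like Serping1 over the 10 arrays, after centring each stage, were Saa3 (r = 0.998), Cav1 (0.998), Procr (0.998), Adcy7 (0.998) and Csf1r (0.997). Saa3 encodes an acute-phase protein and Csf1r the receptor for a macrophage growth factor. These arrays share groups and normalization sets, so the correlations describe the pattern only; in differentiated cells Cav1 and Procr differed by -2.86 and -3.85, while Saa3, Adcy7 and Csf1r ended under the array medians, with EBIO means of 5.37, 4.41 and 5.33.

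The comparison in ES cells asked what 3 days of EBIO did to ES cells that were not taken through embryoid bodies. Of 11 serpins tested 2 fell, against 21.2% of the 12096 genes tested, and 1 rose, against 23.5%; with no filter, 2 of all 40 members rose and 2 fell, beside 15.6% and 14.7% of all genes. Among the 9 members above the median on every array, 1 rose and 1 fell, beside 24.1% and 21.1% of the 10566 such genes. In 5 of the 11 tested members the groups did not overlap, beside 54.7% of all genes tested. Serpinh1 rose 7.12-fold. Serpinb6c, a copy of the Serpinb6 branch, and Serpinb6a fell. Serpinb6c had no EBIO array above its median and entered the test through its control arrays alone, so part of that count follows from the filter. The median difference of tested members was -0.07, beside -0.04 for all genes tested.

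**Figure D3:**
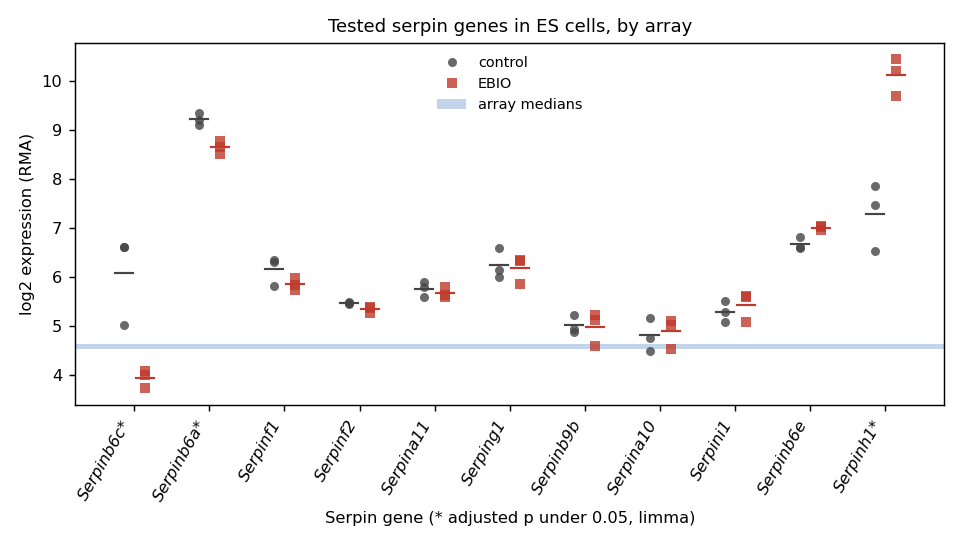
Log2 expression (RMA) of the 11 tested serpin genes on the 6 ES arrays, control as grey circles and EBIO as red squares (n = 3 each), with lines at the group means and a blue band at the array medians. Serpinh1 (mean 7.28 against 10.11) and Serpinb6c (6.08 against 3.93) stand apart, and control array 1 of Serpinb6c lies at 5.02 below the other two controls.

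Serpinh1 measured 7.46, 7.84 and 6.52 on the control arrays and 10.20, 10.44 and 9.68 on the EBIO arrays of the same passages. Every EBIO array was above every control array, and passage 27 was the lowest of both groups. The difference was 2.83 ± 0.33 (SE, adjusted p = 0.00018, limma), and the other probe set gave 3.07. In rank, Serpinh1 stood above 75.6% to 85.5% of probe sets in untreated ES cells and above 95.1% to 97.2% with EBIO, near the 98.9% to 99.0% of untreated differentiated cells.

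Serpinb6c measured 5.02, 6.62 and 6.61 in controls and 3.99, 3.73 and 4.08 with EBIO. The control of passage 25 was the low one, yet the groups did not overlap. Since it ended under the array medians, the fall was at least 2.93-fold against them (measured difference -2.15 ± 0.39 SE, adjusted p = 0.0019, limma). The suffix s_at of its probe set marks probes shared within a gene family. Serpinb6a fell by 0.57 ± 0.13 (SE), from 9.21, 9.34 and 9.10 to 8.76, 8.51 and 8.65 (adjusted p = 0.0063, limma). Serpinb6e measured 6.81, 6.59 and 6.62 in controls and 7.04, 7.03 and 6.95 with EBIO, just short of the threshold (difference 0.33 ± 0.12 SE, adjusted p = 0.051, limma). With passage as a replicate block it was called higher, at an adjusted p of 0.033.

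The other 7 tested serpins were not called. Serping1 measured 6.15, 5.99 and 6.59 in controls and 6.34, 5.86 and 6.32 with EBIO, with overlapping groups (difference -0.07 ± 0.20 SE). Serpinf1 differed by -0.31 (adjusted p = 0.17, limma), but it was called lower without the passage 27 control (-0.47, adjusted p = 0.019) and with the mean of its probe sets (-0.47, adjusted p = 0.022). Serpinf2 (-0.13), Serpini1 (0.14), Serpinb9b (-0.03), Serpina10 (0.08), an inhibitor of activated clotting factor X that works with protein Z, and Serpina11 (-0.09) differed by less than 0.2. All 29 members too dim to test differed by less than 0.25 between the group means.

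In ES cells, where 23.5% of all genes tested rose and 21.2% fell, collagen folding genes had 13 higher and 1 lower of 21 (median 0.97), Col4a2 (4.82) and Col4a1 (4.64), the basement membrane collagens, against Crtap (-0.61). Plasminogen activation genes had 7 higher and 1 lower of 16, Anxa2 (5.05) and the tissue plasminogen activator gene Plat (at least 5.42-fold higher), against Pros1 (-0.83). Plat had no control array above its median and entered the test through its EBIO arrays alone. The list of TGF-beta pathway components with TGF-beta and YAP targets had 6 higher and 3 lower of 11. Ccn1 (5.01) and Ccn2 (3.77) stood against Ltbp4 (-2.98) and Tgfbi (at least 2.67-fold lower). Membrane and secreted members of the serine protease families, with Kunitz inhibitors, had 3 higher and 2 lower of 13, shares near those of all genes. Prss23 (at least 8.69-fold higher) and Htra1 (2.12) stood against Klk8 (-2.38) and St14 (-1.85). Leukocyte proteases and cathepsins had 1 in each direction of 7, Ctsb (0.62) and Ctsc (-1.57), and complement genes 0 of 4 (also 0 at an unadjusted p under 0.05, limma).

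Many markers of other cells were too dim to test at this stage, where 23.5% of all genes tested rose and 21.2% fell. None of 2 fibroblast markers tested was called (1 lower at an unadjusted p under 0.05, limma), 1 of 4 macrophage markers fell, 1 of 7 liver markers fell, 2 of 3 heart markers fell, endothelial markers had 1 higher and 2 lower of 7, neural markers 4 higher and 1 lower of 8, and trophoblast markers 1 in each direction of 7. Among the called markers, the endothelial Tek, which fell, entered the test through its control arrays alone. Gata3, the trophoblast marker that rose, entered through its EBIO arrays alone. Of the fibroblast markers, Col1a1, Col3a1, Lum, Dcn, Pdgfra, Postn and Thy1 were under the medians on every ES array. The 3′ minus 5′ difference of the Actb control probe sets, a sign of RNA integrity, was 0.42 ± 0.09 in untreated and 0.14 ± 0.06 in EBIO-treated ES cells (SD, n = 3 each); in differentiated cells it was 0.43 ± 0.04 and 0.46 ± 0.02 (SD, n = 2 each). For Gapdh the same difference was -0.005 ± 0.073 in untreated and 0.023 ± 0.019 in EBIO-treated ES cells (SD, n = 3 each). In differentiated cells it was 0.031 ± 0.012 and 0.025 ± 0.008 (SD, n = 2 each). The part of RNA integrity in the ES results was not tested.

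The genes most like Serpinh1 over the 10 arrays, after centring each stage, were Reep5 (r = 0.989), Tbrg1 (0.989), Mtch1 (0.989), Map1lc3a (0.986) and Gnai2 (0.986). They differed by 1.75, 0.82, 1.27, 1.38 and 1.36 in ES cells and by -0.41, -0.11, -0.12, -0.08 and -0.14 in differentiated cells. As for Serping1, the arrays share groups and normalization sets, so the correlations describe the pattern only.

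The stages were set against each other by a test of the difference between the EBIO effects. Of 18 members tested in at least 1 stage, 14 differed, 12 with a lower effect in differentiated cells, against 25% of all 13706 genes tested, and 2 with a higher one, against 20.5% (adjusted p under 0.05, limma). Serpinh1 is the member that was called in both stages in opposite directions: 2.83 in ES cells and -0.56 in differentiated cells, a difference of -3.40 ± 0.46 (SE, adjusted p = 0.00012, limma). Serping1, above the medians on every array of both stages, had effects of -0.07 and -6.15 (adjusted p = 3.6e-08, limma). For 7 of the 14, Serpina1b, Serpina3n, Serpinb1a, Serpinb6b, Serpinb8, Serpinb9 and Serpind1, the gene was too dim in ES cells to be tested, so a fall could not have been measured there. Time in EBIO and stage differ together between the experiments and cannot be told apart, and the dose in differentiated cells is not given.

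**Figure D4:**
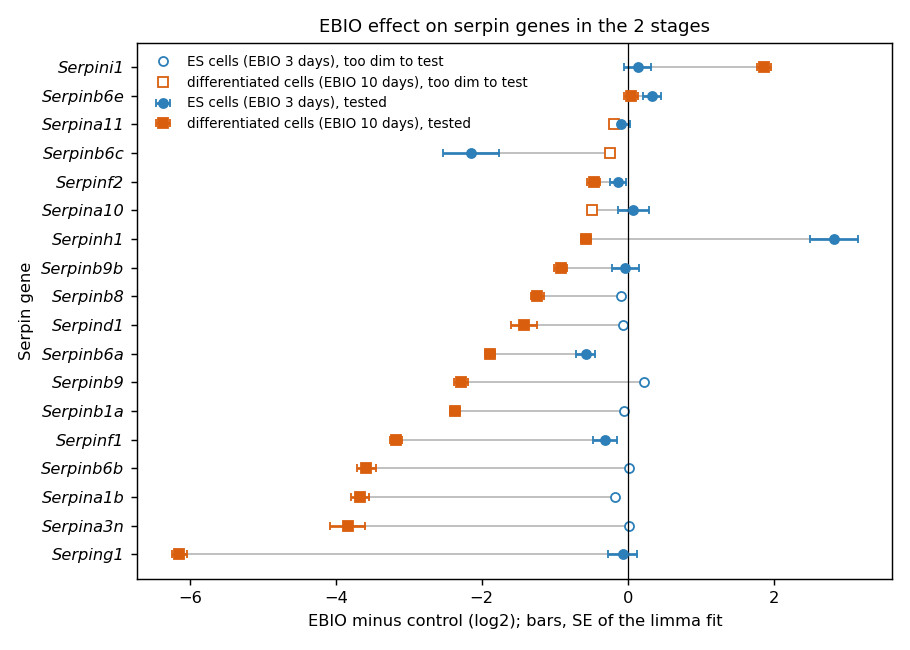
EBIO minus control (log2) for the 18 serpin genes tested in at least 1 stage, in ES cells (blue circles) and differentiated cells (orange squares), with bars for the SE of the fit and open symbols where the gene was too dim to test at that stage. Serpinh1 lies at 2.83 in ES cells and at -0.56 in differentiated cells, while Serping1 lies at -0.07 and -6.15.

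The 22 members tested in neither stage were Serpina12, Serpina1c, Serpina1f, Serpina3a, Serpina3i, Serpina4-ps1, Serpina5, Serpina6, Serpina7, Serpina9, Serpinb11, Serpinb12, Serpinb1b, Serpinb2, Serpinb3a, Serpinb5, Serpinb7, Serpinb9c, Serpinb9d, Serpinb9g, Serpinc1 and Serpini2. Among them are Serpinc1, antithrombin, and Serpinb2, an inhibitor of urokinase.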

How the data were processed

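RNA of 10 samples was measured on Affymetrix arrays. The authors deposited log2 expression from RMA, as the submitters' processing notes state; a label names BioConductor, and versions are not given in the sources used here. RMA compresses the low end of the scale, so differences from a dim probe set are understated. Array quantiles differed on average by no more than 0.0931 among ES arrays and 0.0497 among differentiated arrays, but by 0.908 or more across stages: the sets had been normalized separately. For arrays, their number limits the precision.

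Of 45101 probe sets 64 controls were left out, and 34958 had 1 symbol, 932 several and 9211 none. Symbols came from the platform annotation and were updated through RefSeq; this changed no serpin. The 40 members had 56 probe sets; 3 more probe sets with several symbols, at least 1 of them a serpin, were left out. Each stage was fitted on its own arrays, and the difference between stages on all 4 groups, by moderated linear models (limma 3.58.1, R 4.3.3). P-values were adjusted by Benjamini-Hochberg over all genes tested, at a threshold of 0.05. Where a group had arrays under their medians, the text gives the fold as a lower bound, with those values replaced by the median; medians over genes, figures, calls without the filter and differences between stages use the measured values. The fits were tested on simulated data. Samples of a group are called independent experiments by the series.

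Named genes were every serpin tested in at least 1 stage, the 2 most changed called members per direction of each list and the 5 genes most like the leading serpin of each stage. The members and lists were chosen with earlier results of these data known. Replicate numbers in ES cells mark shared passages, and same-numbered arrays deviated together (correlations of 0.33, 0.23 and 0.61); in differentiated cells the correlation was -0.13. Alternatives were the filter, the mean of probe sets, the replicate block, a joint fit, joint quantile normalization, a variance trend and leaving out each array.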

Additional observations from a re-analysis of the deposited data

Results flagged for a closer look

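The serpins below had EBIO effects that differed between the stages when the difference itself was tested in a fit of all 4 groups (limma). The values are the effect in differentiated cells minus that in ES cells on the log2 scale. They are measured differences, also where a group lay under its array medians. Differences below 0 were -6.08 for Serping1, -3.85 for Serpina3n, -3.60 for Serpinb6b, -3.50 for Serpina1b, -3.40 for Serpinh1, -2.87 for Serpinf1, -2.50 for Serpinb9, -2.32 for Serpinb1a, -1.36 for Serpind1, -1.31 for Serpinb6a, -1.14 for Serpinb8 and -0.88 for Serpinb9b. Differences above 0 were 1.91 for Serpinb6c and 1.73 for Serpini1. Serpinb6c was dim in differentiated cells, under 3.6 on all 4 arrays, so its value reflects a fall that was measured in ES cells and could not have been measured in the other stage.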

How the results depend on the processing

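Across the alternatives no called serpin changed sign. Serpins called higher in ES cells numbered 2 in place of 1, with Serpinb6e added, in the fit of all 4 groups, with the 75th percentile filter, with the mean of probe sets, without a filter and with the replicate block (paired by passage); the 75th percentile filter left 1 lower in place of 2, since it left out Serpinb6c. The mean of probe sets also called Serpinf1 lower in ES cells (-0.47, 3 lower in all). In differentiated cells the 75th percentile filter left 8 lower serpins and 0 higher (8 tested, 0 higher at an unadjusted p under 0.05, limma), and the mean of probe sets also left 0 higher, because Serpini1 was then not tested, and 12 lower, without Serpinb8. Over all genes, 2624 rose there in the joint fit and 2526 fell with that stricter filter. For the difference between stages it left 1 serpin with a higher effect. Leaving out each array in turn gave 1 to 2 serpins higher and 2 to 3 lower in ES cells, 1 to 1 and 13 to 13 in differentiated cells, and 1 to 2 and 11 to 13 for the difference. Without a differentiated array the lone sample of its group is assumed to vary like the others. Without differentiated control 1 the difference of Serpinb6c was 1.73 (adjusted p = 0.066), and that of Serpinb9b was -0.78 without control 2 (adjusted p = 0.077) and -0.85 without EBIO 2 (adjusted p = 0.063). The block changed no other serpin call within a stage; between stages it added Serpina10 (-0.57). With crossed numbers, a pairing chosen after seeing the data, 4075 genes rose and 4040 fell in differentiated cells. Genes under the array medians have only bounds.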
